A study of Arabidopsis thaliana with 34 samples.

Results

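The glutathione S-transferases of the tau and phi classes were examined in shoots of Arabidopsis thaliana kept in low oxygen or given a donor of nitric oxide (NO). The members are the 28 tau genes GSTU1 to GSTU28 and the 13 phi genes GSTF2 to GSTF14, each taken by its locus. The choice of this family was made with earlier results of these data known. All 41 loci had a row in the deposited table, among 24537 genes with a named row. They held 52 probe rows, with 1 row for 33 members and several for the other 8.

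Glutathione S-transferases join the tripeptide glutathione to reactive compounds, which makes them more soluble and marks them for transport into the vacuole. Some act instead as carriers that bind a compound without changing it, and some reduce peroxides. The tau and phi classes are the large plant classes of the family, many of their genes lie in tandem arrays, and they are known in shoots for their induction by herbicides, salicylic acid, oxidants and drought.

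The plants were of the Landsberg background and 16 days old at the start, and RNA was taken from shoots. Line C13 makes the haemoglobin of the bacterium Vitreoscilla, an oxygen-binding protein that also reacts with NO, in the cytoplasm, line Mt62 makes it in mitochondria, and WT carries no transgene. Each line had plants in hypoxia (4% oxygen) for 2 or 24 h, plants given the NO donor DETA at 500 µM for 2 or 24 h, and untreated controls at 0, 2 and 24 h. Of these 21 groups 18 had 4 array channels and 3 had 3 channels (C13 hypoxia 2 h, WT DETA 2 h and Mt62 control 0 h), 81 channels in all on 27 array fields and 7 slides, with 3 dyes per field. Each transgenic genotype is 1 line, so the transgene and its insertion cannot be told apart, and the promoter is not stated in the sources used here.

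The authors' deposited table holds no level and no value per plant. Its 34 columns are log fold changes between groups, taken here as log2. Within each line, 12 columns set a treatment against the untreated plants harvested with it and 12 set it against those harvested at 0 h, and the remaining 10 set C13 or Mt62 against WT in equal conditions. A value is listed only where the authors' empirical Bayes test gave an unadjusted p of at most 0.01. Below, "rose" and "fell" mean listed, a gene counts as listed where at least 1 of its rows is and all listed rows have the same sign, and a gene not listed is not thereby unchanged. The size of the smallest listed value of a row bounds its standard error (SE) from above. A p-value computed from this bound is an upper limit, and for the smallest listed value of a row it is fixed by the rule. A value that does not pass with it is therefore not shown to be absent. For a difference between groups of 4 channels the bound had a median of 0.29 over the 41 member rows that have any listed value (0.12 to 0.63), against 0.19 over all rows. In whole shoots, fewer cells of a type and less RNA per cell cannot be told apart, and the 9 of 12 root markers that were measured, such as PYK10 and AKT1, show only changes and not whether root tissue was present.

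Most members were listed somewhere, and more often as higher than as lower. Against the control of the same time 32 members (21 tau and 11 phi) were listed in at least 1 of the 12 comparisons, beside 58.6% of all genes, and against the 0 h control 31 (21 tau and 10 phi), beside 57.7%. Over the 12 comparisons with the control of the same time, 72 of the 492 member values were listed as higher (14.6%, all genes 8.92%) and 23 as lower (4.67%, all genes 9.05%). The tau and phi classes had nearly the same shares, 14.6% and 14.7% higher, and 4.76% and 4.49% lower. Against the 0 h control the phi genes stood at 23.1% higher and 3.21% lower and the tau genes at 12.8% and 10.1%, beside 9.27% and 9.05% of all genes. No test of these shares was made, since genes of a family are not independent. The tau genes GSTU8, GSTU9, GSTU10, GSTU15 and GSTU21 and the phi genes GSTF5 and GSTF7 were listed in none of the 34 comparisons.

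**Figure D1:**
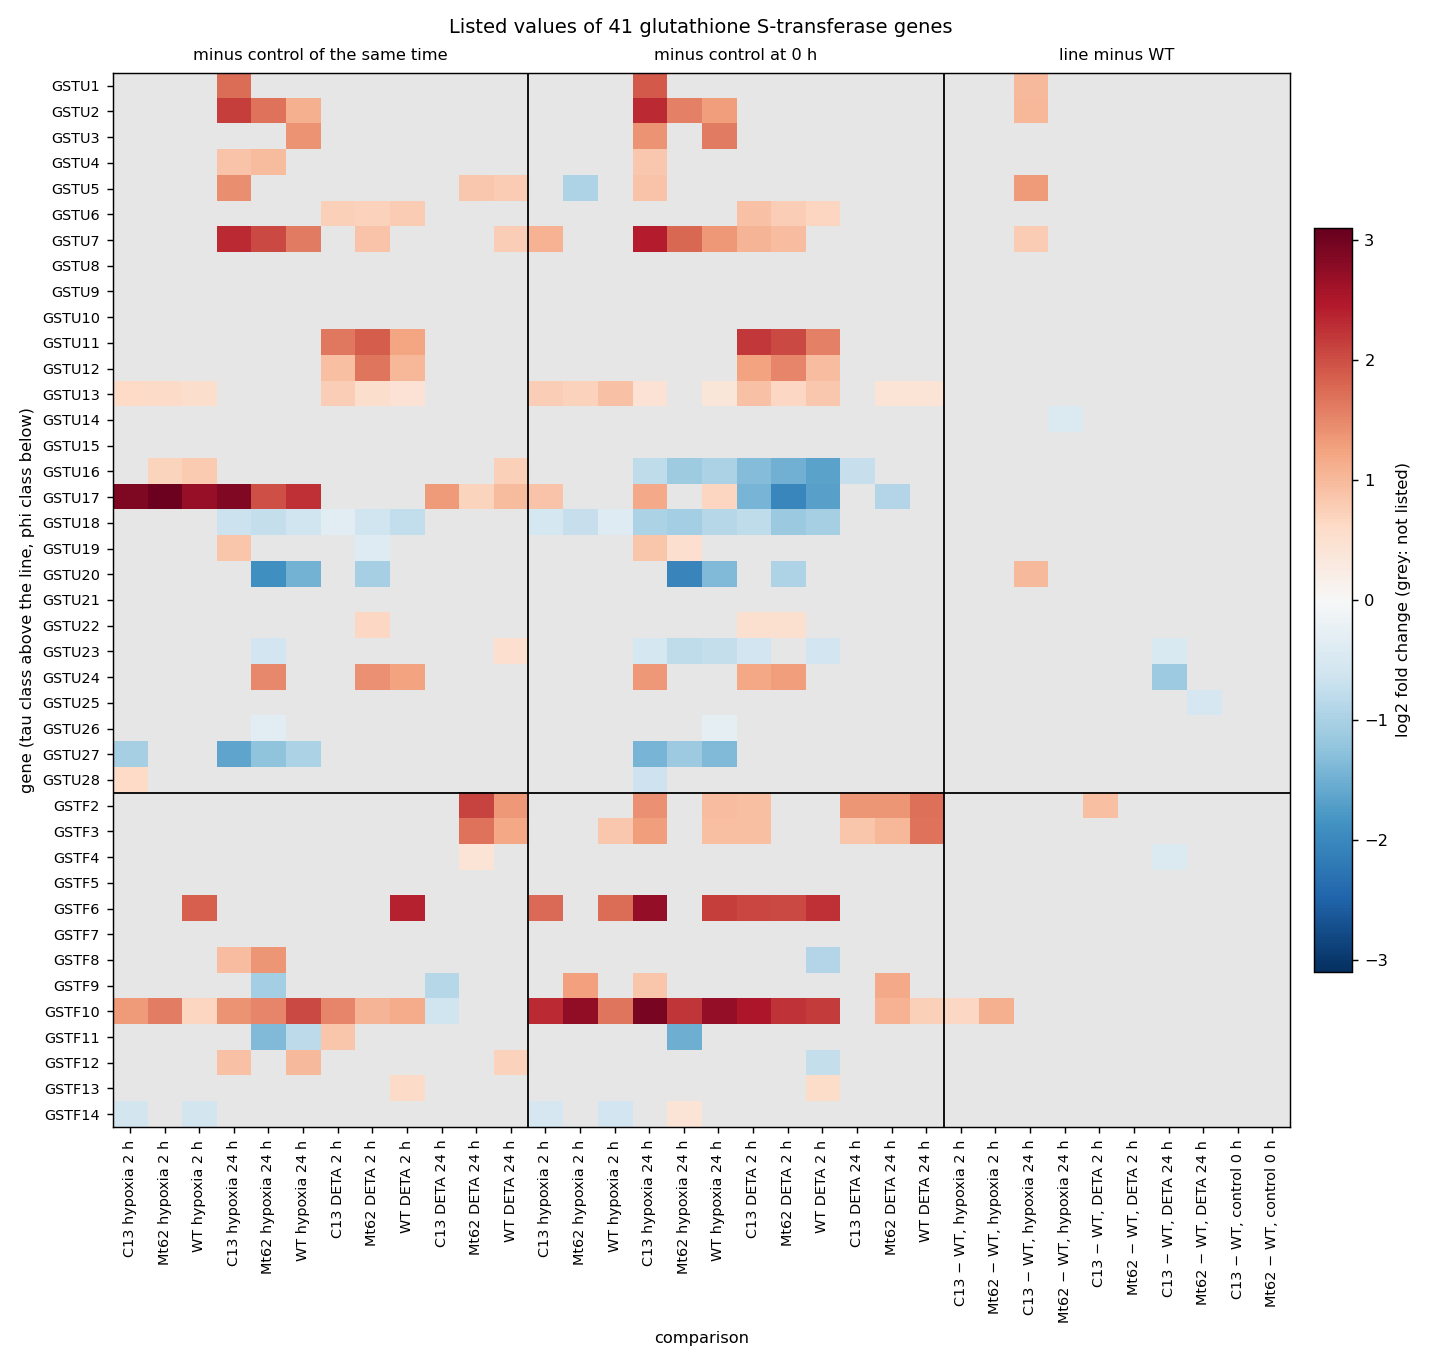
Each row is 1 of the 41 genes (28 tau above, 13 phi below) and each column 1 of the 34 comparisons of the authors' deposited table; colour gives the listed log2 fold change (mean over the gene's listed rows) and grey means not listed. The long red rows are GSTU17 and GSTF10, the red block at the top left is the GSTU1 to GSTU7 run under hypoxia at 24 h, and the columns of a line minus WT hold few values.

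**Figure D2:**
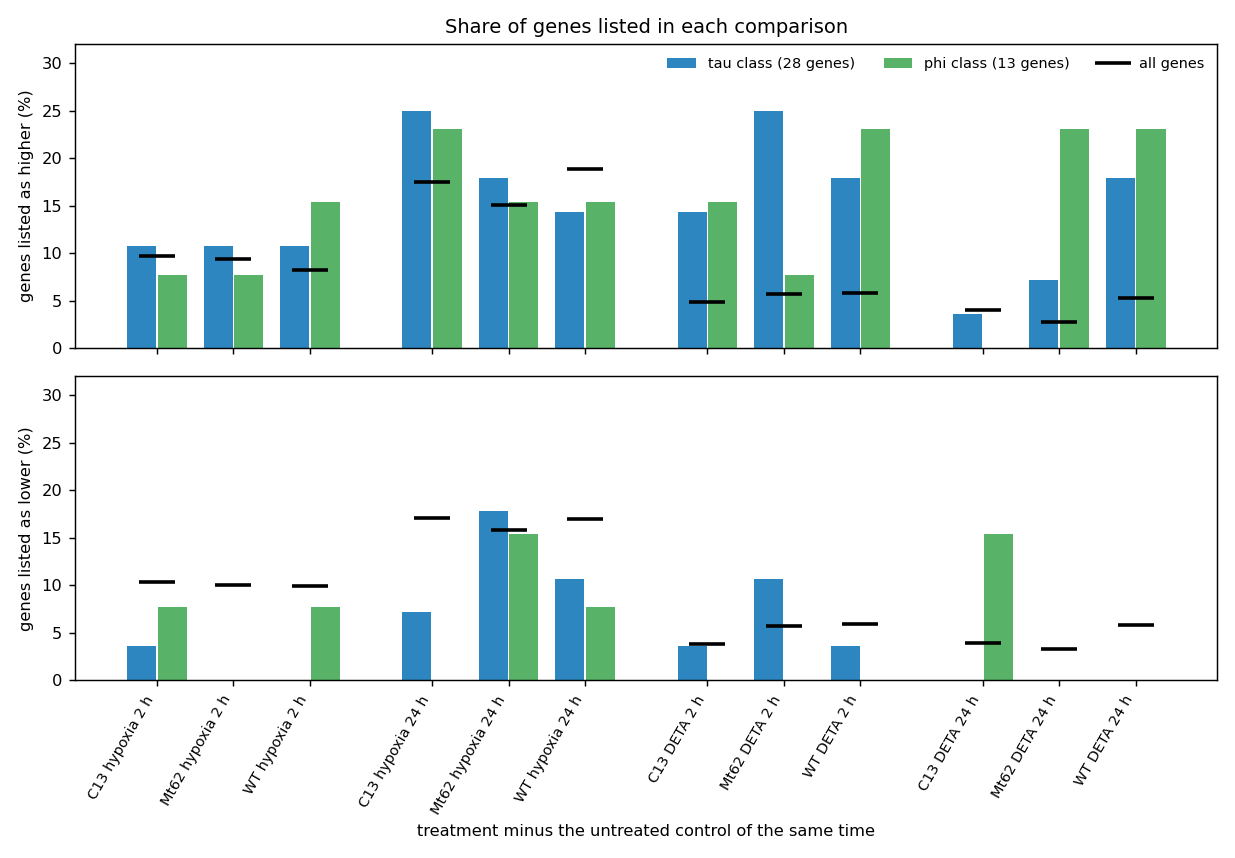
Bars give the percentage of tau genes (28) and phi genes (13) listed as higher (upper panel) or lower (lower panel) in each treatment minus its control of the same time, and black marks give the percentage of all 24537 genes. Under hypoxia the bars for higher values lie on both sides of the marks, and under DETA at 2 h every bar for higher values lies above its mark.

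Hypoxia for 2 h moved few members, and GSTU17 moved most. GSTU17 (AT1G10370), a tau enzyme known for its part in light signalling and in the response to drought, rose by a listed log2 value of 2.91 in C13, 3.04 in Mt62 and 2.69 in WT (SE at most 0.28, 0.26 and 0.26). The lines lay within 0.35 of each other. GSTF10 (AT2G30870), a phi gene first found as an early dehydration-responsive gene, rose by 1.31 in C13, 1.58 in Mt62 and 0.66 in WT (SE at most 0.25, 0.23 and 0.23) on the row that carries most of its values. Its second row was not listed at 2 h. GSTU13 (AT1G27130), a tau enzyme linked to the indole glucosinolate pathway in immunity, rose less, with a log2 value of 0.66 in C13, 0.64 in Mt62 and 0.55 in WT (SE at most 0.16, 0.14 and 0.14). These 3 genes were the members listed as higher in all 3 lines, as 5.4% of all genes were. After adjustment over all rows by Benjamini and Hochberg GSTU17 and the row of GSTU13 given above passed 0.05 in every line. The second row of GSTU13 did not pass in C13 or Mt62 (adjusted p 0.071 and 0.063) and was not listed in WT. GSTF10 passed in C13 and Mt62 but not in WT (adjusted p 0.060). By line, 4 members rose in C13 (9.76% of members, all genes 9.68%), 4 in Mt62 (9.76%, all genes 9.37%) and 5 in WT (12.2%, all genes 8.23%). Fewer fell, with 2 in C13 (4.88%, all genes 10.4%), 0 in Mt62 (all genes 10%) and 1 in WT (2.44%, all genes 9.92%). GSTU16 had 0.68 in Mt62 and 0.80 in WT, and GSTF14 had -0.58 in C13 and -0.57 in WT on 1 of its 2 rows. GSTU27 (-1.04) and GSTU28 (0.62) in C13 and GSTF6 in WT were listed in 1 line each. Of these members, GSTU16 in Mt62 (adjusted p 0.075) and GSTU27 and GSTU28 in C13 (0.071 each) did not pass after adjustment. The other row of GSTF14 was listed only in Mt62 for 24 h of hypoxia minus the 0 h control, at 0.43.

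At 24 h of hypoxia the same tau gene stayed high and a run of tau genes joined it. GSTU17 had listed log2 values of 2.87 in C13, 2.01 in Mt62 and 2.27 in WT (SE at most 0.26 each). GSTF10 had 2.15, 1.51 and 2.04 in the same order of lines (SE at most 0.23 each), while its second row was listed in C13 alone, at 0.64, so that the mean over both rows there was 1.39. GSTU7 (AT2G29420) had 2.30 in C13, 2.04 in Mt62 and 1.60 in WT (SE at most 0.30 each), and GSTU2 (AT2G29480) had 2.14, 1.68 and 1.11 (SE at most 0.40 each). For both tau genes C13 was highest and WT lowest, by amounts that are tested below. These 4 members rose in all 3 lines, as 11.5% of all genes did. By line 10 members rose in C13 (24.4%, all genes 17.5%), 7 in Mt62 (17.1%, all genes 15.1%) and 6 in WT (14.6%, all genes 18.8%). The members that rose had median log2 values of 1.42, 1.51 and 1.50 in C13, Mt62 and WT, against 0.76, 0.77 and 0.75 for all genes that rose. Only listed values enter these medians, and a row with more spread needs a larger value to be listed. The SE bound had a median of 0.29 over member rows and 0.19 over all rows, so these medians alone do not show a stronger response.

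Several genes rose in some of the lines at 24 h of hypoxia. GSTF8, a phi gene used as a marker of the response to salicylic acid and hydrogen peroxide, had 0.96 in C13 and 1.37 in Mt62. GSTF12, the carrier that brings anthocyanins to the vacuole (TRANSPARENT TESTA 19), had 0.90 in C13 and 1.00 in WT, and 0.73 in WT after 24 h of DETA. Of 4 anthocyanin genes, the enzyme genes DFR and LDOX and the regulator PAP1 rose in WT at 24 h of hypoxia (1.00, 0.67 and 0.79), beside 18.8% of all genes, and the regulator TT8 was not listed there. TT8 fell in C13 (-0.50) and PAP1 in Mt62 (-0.52), and 0 of the 4 rose in either line. Under that condition 0 of the 4 were listed in WT or Mt62 against the 0 h control, and PAP1 was lower in C13 (-0.75). In direct comparison with WT at 24 h of hypoxia DFR was lower by -0.65 in C13 and -0.62 in Mt62, and PAP1 by -1.24 and -1.08. DFR was already lower in Mt62 than in WT at 0 h, by -0.57. GSTU24, a tau enzyme known to detoxify the explosive TNT, had 1.49 in Mt62, and GSTU5 1.44 in C13.

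GSTU27 and GSTU18 fell in every line at 24 h of hypoxia, and GSTU20 and GSTF11 fell in Mt62 and WT. GSTU27 (AT3G43800) fell by 1.63 on the log2 scale in C13, by 1.25 in Mt62 and by 0.99 in WT (SE at most 0.37 each), and GSTU18 (AT1G10360), the tandem neighbour of GSTU17, fell by 0.66, 0.73 and 0.63 (SE at most 0.13 each). These were the members that fell in all 3 lines, as 11% of all genes did. By line 2 members fell in C13 (4.88%, all genes 17.1%), 7 in Mt62 (17.1%, all genes 15.8%) and 4 in WT (9.76%, all genes 17%). GSTU20, a tau protein that binds the jasmonate-conjugating enzyme JAR1 and is tied to glucosinolate formation, had -1.89 in Mt62 and -1.47 in WT on 1 of its 2 rows and was not listed in C13. GSTF11, a phi gene of the aliphatic glucosinolate pathway, had -1.36 in Mt62 and -0.81 in WT and was likewise not listed in C13. GSTU23 had -0.59, GSTU26 -0.34 and GSTF9 -1.06 in Mt62 alone.

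Aliphatic glucosinolate genes were counted beside GSTU20 and GSTF11 at 24 h of hypoxia, with no test of the difference in counts between lines. Of 8 listed for the pathway (the regulator MYB28, the chain-elongation genes MAM1 and BCAT4, and the core genes CYP79F1, CYP83A1, SUR1, UGT74C1 and SOT18), 2 fell in C13 (all genes 17.1%), 8 in Mt62 (all genes 15.8%) and 7 in WT (all genes 17%), so that the count in C13 lies near the share of all genes. With the 0 h control 5 fell in C13, 8 in Mt62 and 8 in WT (all genes 18%, 16.1% and 17.9%), so the count in C13 depends on the control. SOT18, a sulfotransferase, fell by 0.86 in C13, 1.50 in Mt62 and 1.41 in WT, and UGT74C1, a glucosyltransferase, by 0.57, 1.40 and 1.17. In the direct comparison of C13 minus WT at 24 h of hypoxia, GSTU20 was higher by 0.99 and MAM1 by 0.94, and the other 7 pathway genes were not listed there. Among the 9 measured root markers, 1 rose in C13 (AKT1, a potassium channel, 0.75), 1 fell in Mt62 (PYK10, a beta-glucosidase, -1.79), and in WT 1 rose (AKT1, 0.58) and 1 fell (PYK10, -1.17). PYK10 therefore fell in the lines in which GSTU20 and GSTF11 fell, and its part in that result was not tested. Against the 0 h control PYK10 fell in C13 as well, where GSTU20 and GSTF11 were again not listed.

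DETA for 2 h raised a set of tau genes in all lines that hypoxia at 2 h did not list, apart from GSTU13. GSTU11 (AT1G69930) had listed log2 values of 1.62 in C13, 1.87 in Mt62 and 1.22 in WT (SE at most 0.44, 0.44 and 0.47), and its tandem neighbour GSTU12 (AT1G69920) had 0.94, 1.66 and 1.03 (SE at most 0.35, 0.35 and 0.37). GSTU6 (AT2G29440) had 0.75, 0.71 and 0.80 (SE at most 0.24, 0.24 and 0.26). The response of C13 exceeded that of WT by 0.41 for GSTU11 (95% interval at the bound -0.88 to 1.69) and that of Mt62 exceeded it by 0.65 (-0.64 to 1.94), so no difference between lines was resolved. GSTU13 had 0.66, 0.57 and 0.44 on the row listed in all lines. GSTF10 had 1.51 in C13, 1.06 in Mt62 and 1.15 in WT on 1 of its 2 rows (SE at most 0.23, 0.23 and 0.25). The 5 members that rose in all 3 lines stand beside 2.47% of all genes. By line 6 members rose in C13 (14.6%, all genes 4.81%), 8 in Mt62 (19.5%, all genes 5.69%) and 8 in WT (19.5%, all genes 5.81%). Hypoxia and DETA plants of the same time were compared with the same control plants, so the values of GSTU13 and GSTF10 under both treatments share those controls.

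Part of these values did not pass a test adjusted for the number of rows. Of the 27 member values listed for DETA at 2 h in either direction, 13 passed an adjusted p of 0.05 when the p from the SE bound was adjusted over all rows of the table by Benjamini and Hochberg. GSTF10 passed in all 3 lines (adjusted p 1.1e-05 in C13, 0.0017 in Mt62 and 0.0014 in WT), GSTU11 in C13 (0.021) and Mt62 (0.0031) but not in WT (0.12), and GSTU12 in Mt62 alone (0.00078). GSTU6 passed in none of the lines (0.079, 0.080 and 0.059).

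Outside that set, GSTU24 had 1.41 in Mt62 and 1.25 in WT after 2 h of DETA (adjusted p over all rows 0.043 and 0.12). GSTF6 (AT1G02930), a phi enzyme that takes part in the synthesis of the defence compound camalexin, had 2.39 in WT (SE at most 0.68) and 1.86 in WT after 2 h of hypoxia (SE at most 0.63), and was not listed in C13 or Mt62. GSTF11 had 0.87 in C13, opposite in sign to its values in Mt62 and WT after 24 h of hypoxia, and did not pass there (adjusted p 0.15). GSTU18 fell in all 3 lines, by 0.34 in C13, 0.63 in Mt62 and 0.76 in WT (SE at most 0.13, 0.13 and 0.14), as 1.86% of all genes did. Its fall passed adjustment over all rows in Mt62 and WT (adjusted p 0.00077 and 0.00013) and not in C13 (0.17). In all 1 member fell in C13 (2.44%, all genes 3.84%), 3 in Mt62 (7.32%, all genes 5.69%) and 1 in WT (2.44%, all genes 5.92%). The other falls in Mt62 were GSTU20 at -1.02 and GSTU19, a tau enzyme of broad activity, at -0.41 on 1 of its 3 rows. Neither passed adjustment (adjusted p 0.068 and 0.13). GSTF13 rose in WT alone, by 0.60 (adjusted p 0.11). GSTU19 rose in C13 at 24 h of hypoxia instead, by 0.87 on another row. Of the root markers, AKT1 had 0.47 in C13 and 0.69 in Mt62 after 2 h of DETA, the other 8 measured were not listed, and their part in these results was not tested.

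After 24 h of DETA the phi genes GSTF2 and GSTF3 were the highest members in Mt62 and WT. GSTF2 (AT4G02520), which binds auxin and indole compounds such as camalexin, had 3 rows, with listed log2 values of 2.11, 1.88 and 2.27 in Mt62 and of 1.47, 1.18 and 1.40 in WT. GSTF3 (AT2G02930) had 1.67 in Mt62 and 1.20 in WT (SE at most 0.32 each). Neither was listed in C13 in that comparison. Both genes encode nearly identical proteins, so their probes may share signal and the genes are not separate evidence. GSTU17 was the only member that rose in all 3 lines, with 1.32 in C13, 0.68 in Mt62 and 0.99 in WT (SE at most 0.26 each), beside 1.02% of all genes. By line 1 member rose in C13 (2.44%, all genes 3.99%), 5 in Mt62 (12.2%, all genes 2.72%) and 8 in WT (19.5%, all genes 5.31%).

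The falls at 24 h of DETA were 2 in C13 (4.88%, all genes 3.89%), 0 in Mt62 (all genes 3.32%) and 0 in WT (all genes 5.79%). They were the tandem neighbours GSTF9, at -0.88, and GSTF10, at -0.62 on 1 of its 2 rows. Of the 16 member values listed for 24 h of DETA, 6 passed after adjustment over all rows. They were GSTU17 in C13 (adjusted p 0.00065) and WT (0.011), not in Mt62 (0.24), and GSTF2 and GSTF3 in Mt62 and WT (0.00064 for GSTF3 in Mt62 and 0.013 in WT). GSTF2 passed on all 3 rows in Mt62, but on 1 of its 3 rows in WT (adjusted p 0.060, 0.022 and 0.13).

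**Figure D3:**
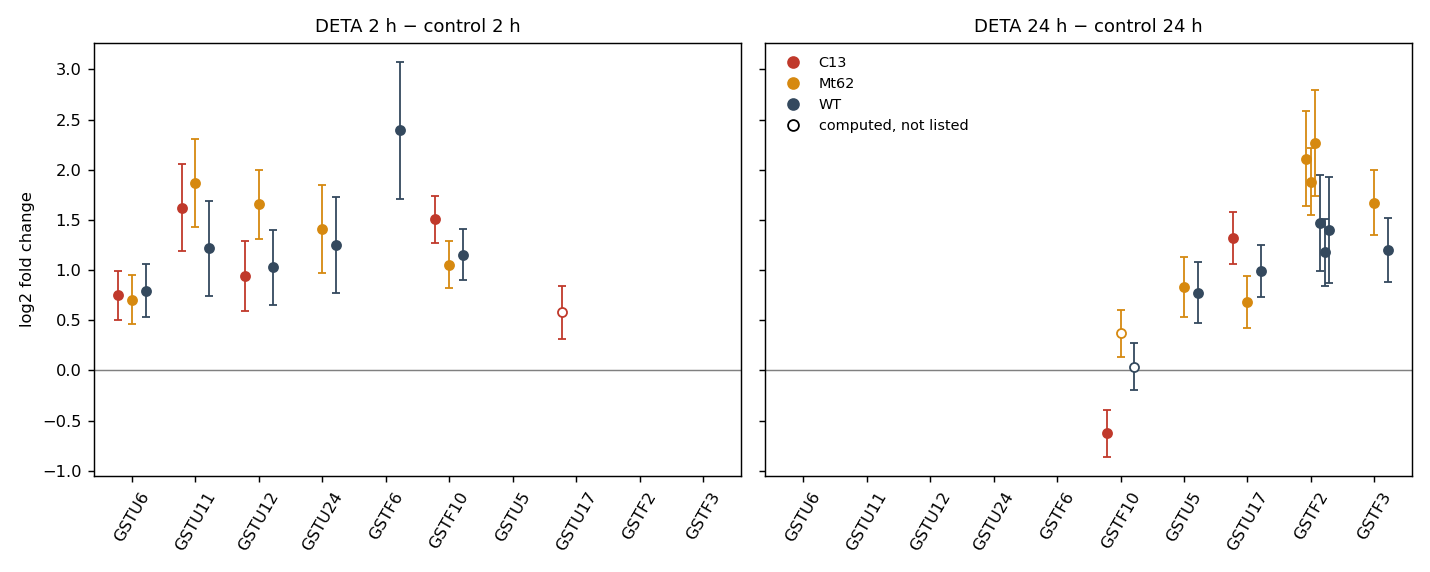
Points give log2 fold changes of 10 genes in DETA minus the untreated control of the same time, at 2 h (left) and 24 h (right), by line and by probe row; bars are ± the upper bound of the SE, and open points were computed from other listed columns. GSTU6, GSTU11, GSTU12 and GSTF10 lie above 0 in all 3 lines at 2 h, and GSTF2 and GSTF3 have points at 24 h only, in Mt62 and WT.

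The untreated controls changed with time in a few members, so the choice of control changed what was read from them. The columns add up to within 2.0e-09 over closed loops, so the change of a control follows from a treatment's difference from both controls. GSTU17 was lower in the C13 control at 2 h than at 0 h by a log2 difference of -2.02 (SE at most 0.26, adjusted p 4.6e-09), and at 24 h than at 0 h by -1.69 in C13, -1.60 in Mt62 and -1.60 in WT (SE at most 0.26, 0.28 and 0.26). GSTF10 went the other way. Its control at 2 h minus 0 h was 1.01 in C13, 1.17 in Mt62 and 1.01 in WT, and at 24 h minus 0 h 0.81, 0.70 and 0.70 (SE at most 0.23, 0.25 and 0.23 in each case). The adjusted p of these values was at most 0.037, apart from GSTF10 in Mt62 at 24 h (0.080). GSTU18 had -0.45, -0.52 and -0.28 at 2 h minus 0 h (SE at most 0.13, 0.14 and 0.13), which passed in C13 (adjusted p 0.0089) and Mt62 (0.0047) and not in WT (0.16), and its values at 24 h minus 0 h passed in none of the lines (0.18, 0.23 and 0.24). Time of day, and time in the experiment, were not separated by the design.

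Against the 0 h control GSTU17 had smaller or negative values. Its listed log2 values were 0.88 in C13 for 2 h of hypoxia and 1.18 in C13 and 0.67 in WT for 24 h of hypoxia. Under DETA at 2 h it was lower than at 0 h, by -1.45 in C13, -2.03 in Mt62 and -1.68 in WT. It was not listed there for 2 h of hypoxia in Mt62 or WT, nor for 24 h of hypoxia in Mt62 (computed 0.41). For 24 h of DETA in Mt62 the sign turned, with 0.68 against the 24 h control and -0.92 against the 0 h control. In C13 and WT the values for 24 h of DETA against the 0 h control were not listed, and were computed as -0.37 and -0.60.

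GSTF10 was high by either control until 24 h of DETA on 1 of its 2 rows. Against the 0 h control it had 2.32 in C13, 2.75 in Mt62 and 1.67 in WT for 2 h of hypoxia, 2.95, 2.22 and 2.73 for 24 h of hypoxia, and 2.52, 2.23 and 2.16 for 2 h of DETA. For 24 h of DETA the listed values were 1.07 in Mt62 and 0.74 in WT. It was listed in 23 of the 34 comparisons, the most of any member, against a median of 4 comparisons per member and 3 per gene. All 23 have a value on 1 of its 2 rows, which alone gives the computed differences of GSTF10. The other row was listed only for C13 at 24 h of hypoxia minus the 24 h control, at 0.64 (SE at most 0.25). If a row has 1 variance, a change of that size between groups of 4 channels would have been listed on it elsewhere too. The 2 rows of GSTF10 therefore did not read alike, and the reason was not tested.

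**Figure D4:**
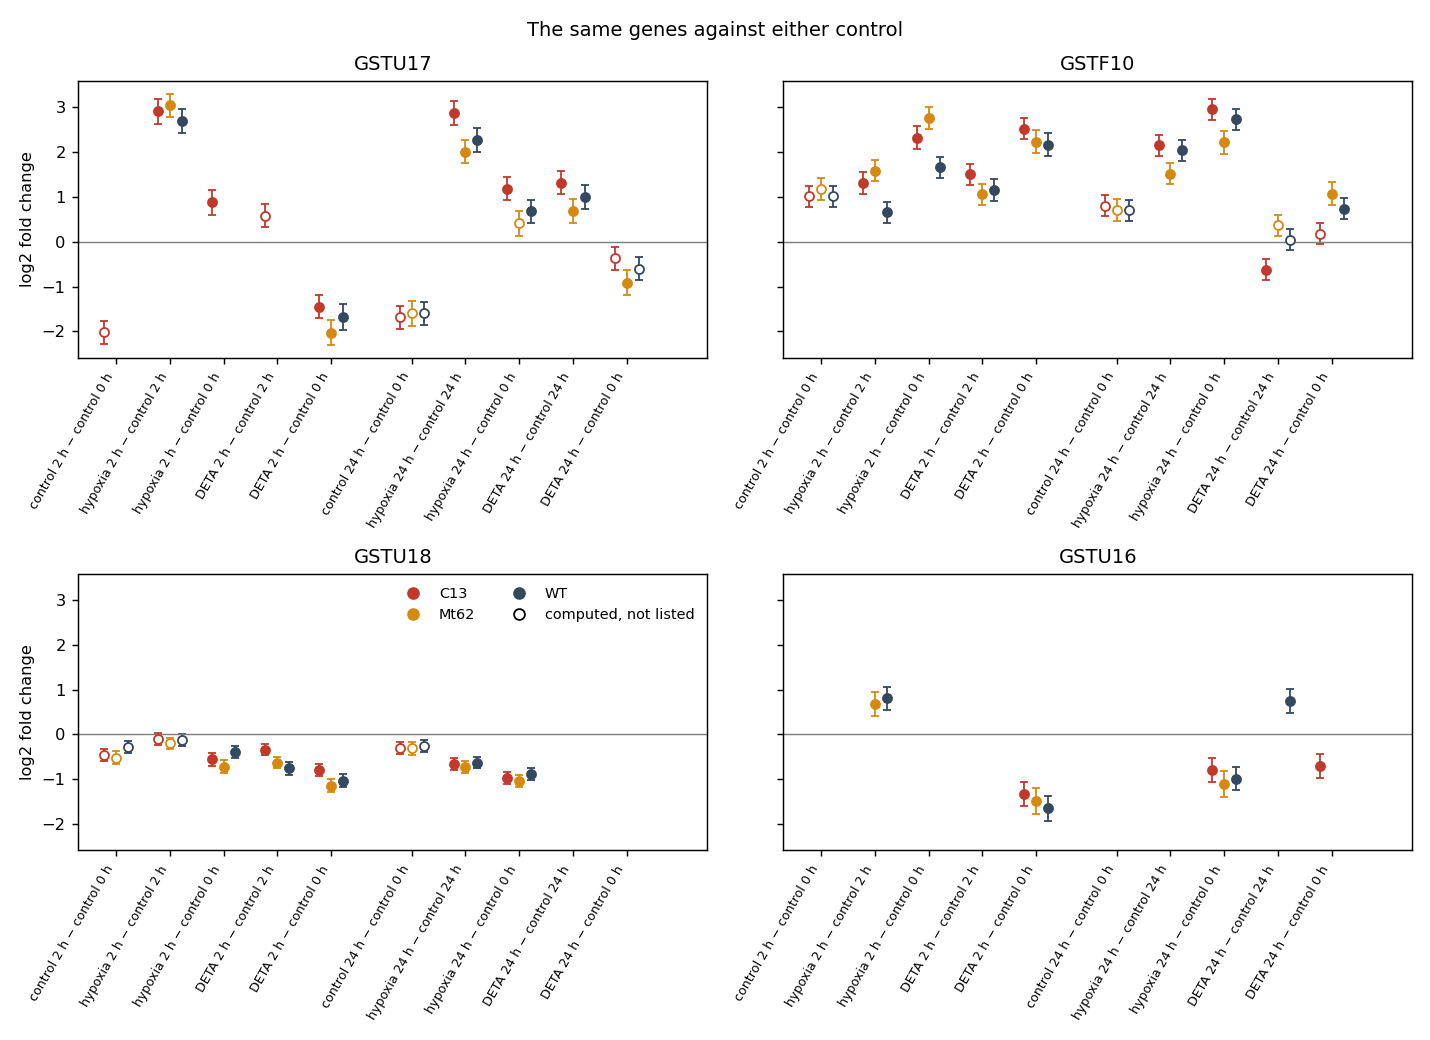
Points give log2 fold changes of 1 row each of GSTU17, GSTF10, GSTU18 and GSTU16 by line, for the untreated control at 2 or 24 h minus 0 h and for each treatment minus either control; bars are ± the upper bound of the SE, filled points were listed and open points computed, and a gap means that neither was possible. GSTU17 lies between 2.01 and 3.04 for hypoxia minus the 2 h or 24 h control and between -2.02 and -1.60 for its controls against 0 h, while GSTF10 lies above 0 in both.

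The members listed against the 0 h control are given here by line and condition. For 2 h of hypoxia 5 members were higher in C13 (12.2%, all genes 10.9%), 3 in Mt62 (7.32%, all genes 9.15%) and 4 in WT (9.76%, all genes 9.1%), and 2 were lower in each line (4.88%, all genes 11.2%, 9.43% and 9.89%). For 24 h of hypoxia 15 were higher in C13 (36.6%, all genes 19%), 5 in Mt62 (12.2%, all genes 15.4%) and 9 in WT (22%, all genes 19.2%), and 5, 6 and 6 were lower (all genes 18%, 16.1% and 17.9%). GSTU18 was lower in all lines in both conditions. For 2 h of DETA 11 were higher in C13 (26.8%, all genes 8.08%), 9 in Mt62 (22%, all genes 7.43%) and 7 in WT (17.1%, all genes 8.24%), and 4, 4 and 6 were lower (all genes 6.58%, 7.39% and 7.65%). For 24 h of DETA 2 were higher in C13 (4.88%, all genes 1.52%), 5 in Mt62 (12.2%, all genes 1.83%) and 4 in WT (9.76%, all genes 1.36%), and 1, 1 and 0 were lower (all genes 1.53%, 1.59% and 1.42%). After adjustment over all rows the higher members for 2 h of DETA became 7 in C13 (17.1%, all genes 5.55%), 5 in Mt62 (12.2%, all genes 4.87%) and 4 in WT (9.76%, all genes 5.61%). For 24 h of DETA they became 0 in C13 (all genes 0.0774%), 1 in Mt62 (2.44%, all genes 0.253%) and 2 in WT (4.88%, all genes 0.134%). These comparisons share the treated plants with those of the same time, and all 4 conditions of a line share its 0 h plants.

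Some members were listed mainly against the 0 h control. GSTU16 was lower there in all 3 lines for 2 h of DETA (-1.33 in C13, -1.48 in Mt62 and -1.65 in WT) and for 24 h of hypoxia (-0.79, -1.10 and -0.99). GSTU23 had -0.54, -0.79 and -0.75 for 24 h of hypoxia in the same order. GSTF6 was higher in all 3 lines for 2 h of DETA (2.06 in C13, 2.04 in Mt62 and 2.27 in WT) and reached 2.73 in C13 and 2.14 in WT at 24 h of hypoxia. GSTF6 and its neighbour GSTF7 are nearly identical, so the GSTF6 probe may read both. GSTF2 and GSTF3 were higher in all 3 lines for 24 h of DETA, as 0.216% of all genes were. GSTF3 had 0.85 in C13, 1.04 in Mt62 and 1.68 in WT, of which the value in WT passed adjustment over all rows (adjusted p 0.0057) and the others did not (0.47 and 0.31). GSTF2 was listed in C13 on 1 of its 3 rows (1.37, adjusted p 0.47). In Mt62 all 3 rows were listed and none passed (0.44, 0.17 and 0.44). In WT 1 of the 3 rows passed (0.015) and the others did not (0.095 and 0.32). Of the 95 member values listed for a treatment minus the control harvested with it, 64 were listed with the same sign against the 0 h control, 30 were not listed there and 1 had the opposite sign.

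In the difference between both treatments at 1 time, the common control drops out. GSTU17 was higher in hypoxia than in DETA at 2 h in C13 by 2.33 (SE at most 0.28, adjusted p 1.1e-09), and at 24 h by 1.55 in C13, 1.32 in Mt62 and 1.28 in WT (SE at most 0.26 each, adjusted p 6.1e-07, 1.3e-05 and 2e-05). For GSTF10 hypoxia minus DETA at 2 h was -0.20 in C13, 0.53 in Mt62 and -0.50 in WT (SE at most 0.25, 0.23 and 0.25, adjusted p 0.67, 0.083 and 0.16), which does not show that the treatments were equal. At 24 h it was higher in hypoxia by 2.77 in C13, 1.14 in Mt62 and 2.00 in WT (adjusted p 4.4e-15, 2.5e-05 and 6.4e-11). GSTU13 at 2 h differed by 0.00, 0.07 and 0.11 on its first row (SE at most 0.16, 0.14 and 0.16). GSTU18 was higher in hypoxia than in DETA at 2 h by 0.42 in Mt62 and 0.64 in WT (adjusted p 0.0080 and 0.00021), and by 0.24 in C13 (0.25). These differences exist only for members listed in enough columns to compute them.

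Over time the same genes separated again. GSTF10 was lower at 24 h than at 2 h of DETA by a log2 difference of -2.34 in C13, -1.15 in Mt62 and -1.42 in WT (adjusted p 8.6e-12, 3.8e-05 and 3.9e-06), and GSTU17 was higher at 24 h by 1.08 in C13, 1.11 in Mt62 and 1.08 in WT (adjusted p 0.00053, 0.00029 and 0.00092). Both comparisons are between treated plants and hold any change of untreated plants between those times as well. Under hypoxia GSTF10 at 24 h minus 2 h was 0.63 in C13, -0.54 in Mt62 and 1.07 in WT, of which the value in WT passed (adjusted p 0.063, 0.087 and 0.00024). GSTU7 was higher at 24 h than at 2 h of hypoxia by 1.37 in C13 (adjusted p 0.0013).

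Between the lines, 13 member values were listed in the 10 comparisons with WT, for 12 members (9 tau and 3 phi), beside 17.1% of all genes. In untreated plants at 0 h none was listed in C13 (all genes 1.04% higher and 1.74% lower) or in Mt62 (0.298% and 0.477%). The largest group was C13 minus WT at 24 h of hypoxia, where 5 tau members were higher (12.2%, all genes 1.47%) and 0 lower (all genes 1.47%). Their log2 values were 1.00 for GSTU1, 1.02 for GSTU2, 1.32 for GSTU5, 0.80 for GSTU7 and 0.99 for GSTU20, with SE of at most 0.39, 0.40, 0.30, 0.30 and 0.34. Only GSTU5 passed adjustment over all rows (adjusted p 0.034). The other 4 had an adjusted p of 0.47, which is an upper limit. For GSTU1 and GSTU2 the listed value itself set the SE bound. Their p was thereby fixed and could not pass where so few rows were listed. GSTU5 itself rose in C13 at 24 h of hypoxia, by 1.44, and was not listed there in Mt62 or WT, while 24 h of DETA gave 0.83 in Mt62 and 0.78 in WT.

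The other values against WT were scattered. On 1 of its 2 rows GSTF10 was higher at 2 h of hypoxia by 0.65 in C13 (2.44% of members, all genes 0.848%) and by 1.11 in Mt62 (2.44%, all genes 0.656%), with adjusted p of 0.79 and 0.082. At 24 h of hypoxia GSTU14 was lower by -0.44 in Mt62 (2.44%, all genes 2.31%). At 2 h of DETA GSTF2 was higher in C13 by 0.93 on 1 of its 3 rows (2.44%, all genes 1.3%). At 24 h of DETA GSTU23, GSTU24 and GSTF4 were lower in C13 by -0.46, -1.13 and -0.44 (7.32%, all genes 1.42%), and GSTU25, another tau enzyme that acts on TNT, was lower in Mt62 by -0.53 (2.44%, all genes 1.9%). None of these passed adjustment over all rows. Apart from GSTF10 in Mt62, each value was at or next to the smallest listed for its row after scaling, and so lay at its own SE bound. Its p was thereby fixed and could not pass where so few rows were listed. GSTF4 was otherwise listed only in Mt62 at 24 h of DETA (0.44).

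The response of a line was then set against the response of WT, as a difference of differences. It could be computed only where the values of both lines were known, which held for 2 to 8 of the 41 members per contrast. GSTU1, GSTU5 and GSTU20 could not be computed for C13 at 24 h of hypoxia. Among the members computed, none passed an adjusted p of 0.05 in any of the 8 contrasts. In each contrast 0 to 20 rows of the whole table passed. The smallest unadjusted p was that of GSTF10 at 2 h of hypoxia, where Mt62 exceeded WT by 0.93 (SE at most 0.33, 95% interval at the bound 0.26 to 1.59, p 0.0070 by the t distribution of the bound, adjusted p 1.00). GSTU2 at 24 h of hypoxia was larger in C13 than in WT by 1.04 (interval -0.08 to 2.16), and GSTU7 by 0.70 (-0.14 to 1.55). GSTU18 after 2 h of DETA fell less in C13 than in WT, by 0.42 (0.03 to 0.80, adjusted p 0.46). GSTU17 differed by 0.21 in C13 and 0.35 in Mt62 at 2 h of hypoxia (intervals -0.56 to 0.98 and -0.39 to 1.09). These intervals do not show that the lines responded alike.

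The position of the genes gives a further view, for which the TAIR10.1 annotation was used for names and order only. It places 27 members in 8 runs, with at most 3 other coding genes inside a run, and 14 members alone. The longest run, GSTU7 to GSTU1 on chromosome 2, rose together in part at 24 h of hypoxia, with 5 of 7 genes in C13 (all genes 17.5%), 3 in Mt62 (all genes 15.1%) and 3 in WT (all genes 18.8%). GSTU1 had 1.73 in C13, GSTU3 1.40 in WT, and GSTU4 0.89 in C13 and 0.97 in Mt62 on 1 of its 3 rows. Against the 0 h control the counts were 6 in C13, 2 in Mt62 and 3 in WT (all genes 19%, 15.4% and 19.2%). The remaining gene of the run, GSTU6, was not listed under hypoxia at all and rose after 2 h of DETA instead. In the comparison of C13 minus WT at 24 h of hypoxia, 4 of the 5 tau values belong to this run. Genes of a run resemble each other in sequence, and shared probe signal was not tested.

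**Figure D5:**
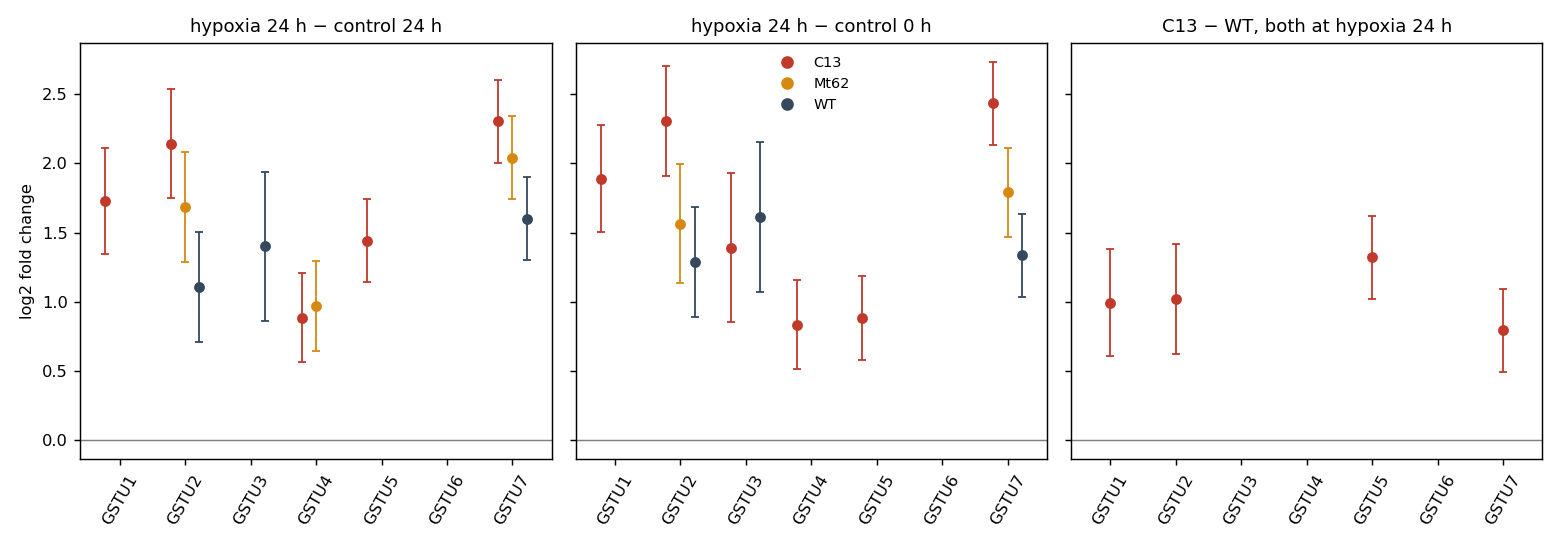
Points give the listed log2 fold changes of GSTU1 to GSTU7, the run on chromosome 2, by line for 24 h of hypoxia minus the control of the same time (left) or of 0 h (middle), and for C13 minus WT in hypoxia (right); bars are ± the upper bound of the SE. GSTU2 and GSTU7 have points in all 3 lines, highest in C13, and GSTU6 has none.

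The other runs differed in how far their genes moved together. In the pair GSTU18 and GSTU17 on chromosome 1, GSTU17 rose and GSTU18 fell in all 3 lines at 24 h of hypoxia, and both were lower than the 0 h control after 2 h of DETA. In C13 the untreated control of GSTU17 was itself lower at 2 h than at 0 h, by -2.02. Against that 2 h control GSTU17 was not listed in C13 after 2 h of DETA (computed 0.58), while GSTU18 had -0.34. GSTU12 and GSTU11 rose together after 2 h of DETA in all 3 lines, against either control. In the run GSTU23 to GSTU19, GSTU22 rose in Mt62 after 2 h of DETA (0.64) while GSTU20 and GSTU19 fell. GSTF9 and GSTF10 had opposite signs in Mt62 at 24 h of hypoxia, where GSTF9 had -1.06 and GSTF10 1.51, and both fell in C13 at 24 h of DETA. Both were higher than the 0 h control in 3 comparisons, in which GSTF9 had 1.27 in Mt62 at 2 h of hypoxia, 0.86 in C13 at 24 h of hypoxia and 1.18 in Mt62 at 24 h of DETA (SE at most 0.36, 0.33 and 0.36).

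The genes that supply glutathione and move its conjugates were listed beside the members. Of 12 measured genes of glutathione synthesis, turnover, reduction and transport, 4 rose and 2 fell in C13 at 24 h of hypoxia (all genes 17.5% and 17.1%), 2 rose and 2 fell in Mt62 (all genes 15.1% and 15.8%), and 3 rose and 2 fell in WT (all genes 18.8% and 17%), so that most of these counts lie near the share of all genes. The counts against the 0 h control were 4 higher and 3 lower in C13 (all genes 19% and 18%), 0 and 2 in Mt62 (all genes 15.4% and 16.1%), and 1 and 3 in WT (all genes 19.2% and 17.9%). GR1, the cytosolic glutathione reductase, rose by 1.09 in C13, 1.12 in Mt62 and 1.44 in WT at 2 h of hypoxia and by 0.99, 0.78 and 1.06 at 24 h. GR1 had the opposite sign against the 0 h control, with -0.66 in Mt62 and -0.70 in WT at 2 h of hypoxia and -0.40 in WT at 24 h. GGT4, the vacuolar enzyme that begins the breakdown of glutathione conjugates, fell by 1.42, 1.74 and 1.59 at 2 h and by 1.09, 1.21 and 1.14 at 24 h. GGT1, its apoplastic relative, fell by 0.84, 1.18 and 0.84 at 2 h. After 2 h of DETA, GSH2, the second enzyme of glutathione synthesis, rose by 0.73 in C13, 0.83 in Mt62 and 0.78 in WT, while 2 genes of the list fell in C13, 3 in Mt62 and 2 in WT (all genes 3.84%, 5.69% and 5.92%).

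Among the 12 measured genes of the other glutathione S-transferase classes, 4 rose and 1 fell in C13 (all genes 17.5% and 17.1%), 2 rose and 3 fell in Mt62 (all genes 15.1% and 15.8%), and 3 rose and 2 fell in WT (all genes 18.8% and 17%) at 24 h of hypoxia. With the 0 h control 5 were higher and 0 lower in C13 (all genes 19% and 18%), 1 and 1 in Mt62 (all genes 15.4% and 16.1%), and 3 and 1 in WT (all genes 19.2% and 17.9%). DHAR2, a dehydroascorbate reductase, rose by 1.00, 1.22 and 0.70 in C13, Mt62 and WT, and GSTZ1, which acts in tyrosine breakdown, by 0.51, 0.78 and 0.70. GSTL2 of the lambda class fell by 0.31, 0.72 and 0.70. After 2 h of DETA 0 of these 12 were listed as higher in any line, where 4.81% of all genes in C13, 5.69% in Mt62 and 5.81% in WT were, so that a count of 0 lies near the share of all genes. In the same comparisons 1 fell in C13, 2 in Mt62 and 2 in WT (all genes 3.84%, 5.69% and 5.92%).

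Of the 11 genes that control or accompany the response of these enzymes to foreign chemicals, none fell in any comparison with the control of the same time, but falls were listed against the 0 h control. UGT74E2, a glucosyltransferase, was lower there in all 3 lines for 2 h of hypoxia (-2.00 in C13, -2.33 in Mt62 and -1.65 in WT), 24 h of hypoxia (-1.61, -1.80 and -1.48) and 2 h of DETA (-1.47, -1.63 and -1.31), and in C13 for 24 h of DETA (-0.69). OPR1, an oxophytodienoate reductase-like gene, was lower in Mt62 for 2 h of hypoxia (-1.10). At 24 h of hypoxia minus the control of the same time 5 rose in C13, 4 in Mt62 and 5 in WT (all genes 17.5%, 15.1% and 18.8%), among them OPR2, a relative of OPR1, at 1.45, 1.77 and 1.43, and the transcription factor gene TGA5 at 0.79, 0.71 and 0.82. After 2 h of DETA 1 rose in C13, 4 in Mt62 and 3 in WT (all genes 4.81%, 5.69% and 5.81%), and OPR1 had 1.50, 1.67 and 2.61. After 24 h of DETA CYP81D11, a cytochrome P450 gene often induced together with tau genes, had 1.46, 1.16 and 1.23. CYP81D11 was also higher in C13 than in WT at 24 h of hypoxia, by 1.47, in the comparison that listed 5 tau members.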

How the data were processed

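RNA was hybridized to Agilent oligonucleotide arrays, 3 dyes per field. Per the series design text, the authors applied quantile normalization, a modified ComBat and an empirical Bayes t-test, and deposited log fold changes, set to null where p was above 0.01. The base of these deposited log2 values is not stated in the sources used here and was taken as 2. The design text speaks of averages per gene, but the 34558 rows are by probe. The text calls the channels biological replicates; no value per channel was used here, so no SD, no replicate check and no block for slide or dye could be computed, and p-values rest on the spread the authors' test used.

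Member rows were named by accession (44) or by symbol (8) and 8192 unnamed rows did not enter gene counts. A gene's value is the mean of its listed rows, unless a row is named. The SE bound is the smallest listed size of a row, scaled by channel numbers and divided by 2.58. P-values from the bound used a t distribution with 60 degrees of freedom, adjusted by Benjamini and Hochberg over all rows. At 24 h of hypoxia so many rows are listed that every listed gene of the whole table passed. The passing of all 36 listed member values there therefore sets no further limit. As a check on 1 variance per row, listed values were set against computed unlisted ones after scaling, and were the larger in 98.6% of 4473 rows. The functions were tested on simulated data. Python 3.11.15, pandas 2.3.3, numpy 2.4.6 and scipy 1.17.1 were used.

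The members and gene lists were chosen with earlier results of these data known. Members were named with values in each line where listed with 1 sign in all 3 lines in a condition, or listed against WT, or with opposite signs under the 2 treatments. GSTU1, GSTU3, GSTU4, GSTU16, GSTU22, GSTU26, GSTU28, GSTF3, GSTF6, GSTF8, GSTF9, GSTF12, GSTF13 and GSTF14, where named outside that rule, and the genes of the other lists that were not listed in all 3 lines, were chosen after their values were seen. Alternatives were stricter rules for several rows, naming by accession alone, a size of at least 1, adjusted p-values, the other control, other channel numbers and other distributions.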

Additional observations from a re-analysis of the deposited data

How the results depend on the processing

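Counts of listed member values over the 3 lines kept within 1.5 times of the reported count in 25 of 36 checks and moved further in 11. For 2 h of hypoxia the 16 values became 10 when every row of a gene had to be listed and 7 with a log2 size of at least 1. For 24 h of hypoxia 36 became 23 with that size, and stayed 36 after adjustment, where every listed gene of the table passed. For 2 h of DETA 27 became 12 with that size, 13 after adjustment over all rows and 41 against the 0 h control, and for 24 h of DETA 16 became 5 with that size and 6 after adjustment. The 13 values against WT became 4 with that size and 1 after adjustment, or 2 with a normal distribution in place of the t distribution. Fewer values under a stricter rule follow from the rule itself; for the other control the cause was not tested. Of single values, GSTU17 for 24 h of DETA in Mt62 turned to -0.92 against the 0 h control, GSTF10 in C13 at 24 h of hypoxia was 2.15 by its larger row and 1.39 by the mean, and 14 others stayed within the SE bound. Among the members that could be computed, the absence of a passing difference between responses of lines held with 4 channels in every group. It also held with 10 degrees of freedom. No paired analysis was possible because the deposited columns are comparisons of groups, and no replicate could be left out. Leaving out members with nearly identical proteins was not run, since no protein sequence was used here. Signal over background, which limits what an array resolves, is not in the values used.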

Other observations

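The glutathione peroxidase-like genes, whose products reduce peroxides and which are a separate family, were also listed. All 8 were measured. GPX7, a plastid form, had listed log2 values of 1.92 in C13, 2.40 in Mt62 and 2.49 in WT at 2 h of hypoxia and of 1.62, 1.84 and 1.45 at 24 h. It was listed as higher than the 0 h control under hypoxia in Mt62 alone (0.87 at 2 h and 0.91 at 24 h), and as lower after 2 h of DETA in all 3 lines (-1.24 in C13, -0.92 in Mt62 and -1.43 in WT). GPX1, another plastid form, had -1.69, -1.96 and -2.03 at 24 h of hypoxia. After 24 h of DETA GPX6, a mitochondrial form, had -1.32, -1.37 and -1.07 and GPX2 rose by 0.64, 0.64 and 0.69. Neither GPX6 nor GPX2 was listed for 24 h of DETA against the 0 h control. At 2 h of hypoxia 3 of the 8 rose and 1 fell in C13 (all genes 9.68% and 10.4%), 2 rose and 1 fell in Mt62 (all genes 9.37% and 10%), and 2 rose and 1 fell in WT (all genes 8.23% and 9.92%).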
